A study of Homo sapiens with 16 samples.

Results

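Germinal centre B cells are held inside the follicle by receptors that keep them there and by the low level of receptors that would lead them out, and 10 genes of this system were followed here across 4 lymphoma lines and 4 conditions. The genes were taken from the count files by their symbols, and all 10 were found among the 62714 genes counted. They are the confinement receptors S1PR2 and P2RY8 with their signalling partners GNA13 and ARHGEF1, the egress and homing receptors S1PR1, GPR183 and CCR7, the chemokine receptors CXCR4 and CXCR5 that place B cells within the follicle, and RGS13, a regulator of chemokine receptor signalling. Each of the 10 genes passed edgeR's filter on low counts in every comparison. In some comparisons S1PR1 and CCR7 did so only through the group in which they were high, as stated there.

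S1PR2 (a receptor for sphingosine 1-phosphate, S1P) and P2RY8 (a receptor for a glutathione-conjugated metabolite) couple to the G protein subunit Gα13, the product of GNA13. Gα13 acts through the RhoGEF encoded by ARHGEF1 to activate RHOA, which restrains migration and growth in the follicle centre, and loss of this route is a known feature of germinal centre lymphomas. S1PR1 reads the same lipid in the opposite sense and draws lymphocytes out of lymphoid tissue, GPR183 senses oxysterols and leads activated B cells to the outer follicle, and CCR7 binds the chemokines of the T cell zone. CXCR4 marks the dark zone of the germinal centre and CXCR5 brings B cells into follicles. RGS13 speeds up the switching off of Gi-coupled chemokine receptors.

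The libraries came from the established human B-cell lymphoma lines SU-DHL4 (line 1) and DOHH2 (line 4) and from a pair of lines, called line 2 and line 3, which are SU-DHL10 and OCI-LY7 but which titles and cell line entries assign the other way round from each other. In each line, cells were transduced with the pLENTI-CRISPRv.2 vector carrying Cas9 and guides against CREBBP, which encodes a histone acetyltransferase, or against the AAVS site as a control. The labels write the genotypes as CREBBP -/- and AAVS -/-, but the targeted cells were kept as pools and not as clones, and every pool carried the vector. Each pool was left untreated (baseline) or received 10 ng/ml of IL4 for 4 h, which gives 4 groups (AAVS baseline and AAVS IL4, CREBBP baseline and CREBBP IL4) of 4 libraries, 1 per line. The spread between replicates is thus the spread between lines.

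Total counts ranged from 19649735 to 61981976 per library, with the lowest in the AAVS IL4 group. The CREBBP transcript was counted at 190.5 to 379 CPM (the count per 1000000 counts of the library) in the AAVS pools and at 69.9 to 278 CPM in the CREBBP pools, with overlap between them. These are RNA levels, and the paper reports from immunoblots that the CREBBP protein was lost in the targeted pools. The libraries held the transcripts of B cells and germinal centre B cells throughout: the 5 B cell markers summed to 1842 to 3948 CPM and the 6 germinal centre markers to 532.5 to 1034 CPM. The 4 AAVS IL4 libraries stood apart from the other 12. IGHM, the heavy chain of naive B cell immunoglobulin, was at 138 to 1711 CPM in them and at no more than 0.0696 CPM in the other 12, where IGHD had no count. The sum of the 6 naive or resting B cell markers was 425.6 to 3401 CPM against 4.49 to 34.9 CPM, that of the 4 plasma cell markers 123 to 763 against 9.87 to 50.3 CPM, and that of the 9 T cell markers 18.4 to 164 against 2.19 to 38.3 CPM. CD2 and CD3D, which define T cells, were counted in all 4 AAVS IL4 libraries at 0.566 to 7.69 CPM and 0.440 to 6.82 CPM. In the other 12 libraries CD2 had no count and CD3D was at most 0.144 CPM. The 6 monocyte or macrophage markers (5.51 to 17.5 against 0.870 to 11.9 CPM) and the 4 stromal markers (0.825 to 10.3 against 0 to 5.58 CPM) overlapped between the 2 sets of libraries, as did the T cell sums, through line 4 of AAVS IL4. Within the monocyte or macrophage list, LYZ, which encodes lysozyme, was at 2.56 to 15.4 CPM in AAVS IL4 and at no more than 0.0490 CPM in the other 12 libraries. Every result below that uses the AAVS IL4 group rests on these libraries, and no value of it can be given without them. In the AAVS pools, IL4 and whatever else sets these 4 libraries apart cannot be told apart. An IL4 response below means only the difference between IL4 and baseline libraries. A second departure concerned GC content: in the CREBBP IL4 library of line 2, the 25% of genes highest in GC content lay 0.896 lower (log2, against each gene's median over the libraries) than the 25% lowest in it, beyond the range of -0.603 to 0.792 in the other 15 libraries.

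To show the starting points of the genes described most, the bases just before the RefSeq start of S1PR1, GPR183 and CXCR4, whose levels were higher with IL4 in all 4 AAVS pools, are given beside those of S1PR2, whose level was lower with IL4 in 3 of the 4. The sequences are from RefSeq's promoter table for GRCh38.p14, 5′ to 3′ on the strand of the gene, cut back to bases outside every GENCODE exon. Capitals mark CpG, the dinucleotide CG.
S1PR1, chr1:101236769-101236864, plus strand: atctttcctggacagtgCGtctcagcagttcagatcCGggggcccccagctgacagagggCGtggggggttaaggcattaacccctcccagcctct
GPR183, chr13:99307400-99307649, minus strand: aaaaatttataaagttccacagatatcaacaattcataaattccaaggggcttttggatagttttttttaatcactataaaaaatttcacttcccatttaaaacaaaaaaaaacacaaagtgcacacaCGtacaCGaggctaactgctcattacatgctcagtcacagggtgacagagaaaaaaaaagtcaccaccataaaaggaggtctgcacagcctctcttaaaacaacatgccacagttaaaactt
CXCR4, chr2:136118150-136118399, minus strand: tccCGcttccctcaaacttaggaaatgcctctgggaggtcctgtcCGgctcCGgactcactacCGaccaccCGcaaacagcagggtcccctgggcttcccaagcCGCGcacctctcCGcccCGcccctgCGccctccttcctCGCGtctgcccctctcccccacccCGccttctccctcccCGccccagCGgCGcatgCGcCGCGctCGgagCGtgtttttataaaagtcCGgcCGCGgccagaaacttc
S1PR2, chr19:10231332-10231581, minus strand: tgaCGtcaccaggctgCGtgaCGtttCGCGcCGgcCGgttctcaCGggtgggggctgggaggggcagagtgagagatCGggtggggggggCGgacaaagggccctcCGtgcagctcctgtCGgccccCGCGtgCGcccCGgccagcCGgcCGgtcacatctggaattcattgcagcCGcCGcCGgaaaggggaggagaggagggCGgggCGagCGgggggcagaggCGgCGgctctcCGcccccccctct
The GPR183 window held 2 CpG and was 34.4% GC, whereas the windows of CXCR4 and S1PR2, also of 250 bases, held 24 and 27 CpG at 68% and 74% GC. Across the 34961 promoters of the table the median of the same window was 11 CpG, and 94% held at least 1. CXCR4 has further listed starts that are not printed, whose windows of 163 and 232 bases held 8 CpG each at 50.3% and 53% GC. The S1PR1 window of 96 bases, which ends 154 bases before the RefSeq start, held 3 CpG, the median for that window. The full 250 bases before that start, exon bases included, held 18 CpG at 64.4% GC. The STAT motif, TTC followed by GAA on either strand, occurred with 4 bases between, the spacing preferred by STAT6, in 5.34% of the promoters and with 3 bases between in 6.57%. Neither was found in the 250 bases before any listed start of the members, which says only that these letters are not in these windows. CCR7 had no entry in the table.

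The levels of the confinement receptors S1PR2 and P2RY8 and of GNA13 overlapped between all 4 groups. Those of ARHGEF1 in AAVS IL4 (lowest 156.4 CPM) lay barely above AAVS baseline (highest 155.9 CPM) and above CREBBP IL4 (highest 149.3 CPM). S1PR2 (ENSG00000267534, chromosome 19, 10221433 to 10231331) was counted at 637, 260, 551 and 233 CPM in lines 1 to 4 of AAVS baseline. Its levels in AAVS IL4 were 483, 178, 116 and 366 CPM, lower in lines 1 to 3 and higher in line 4. S1PR2 shares 83 exon bases with DNMT1 on the same strand, a gene at 225 to 1102 CPM. In the CREBBP pools it stood at 647, 271, 390 and 321 CPM when untreated and at 565, 91.3, 429 and 266 CPM after IL4. P2RY8 (ENSG00000182162, chromosome X, 1462581 to 1537185, in the pseudoautosomal region) reached 474, 269, 583 and 282 CPM in AAVS baseline. With IL4 the AAVS pools held 425, 309, 231 and 297 CPM of P2RY8, with lines 1 and 3 lower and lines 2 and 4 higher. The CREBBP pools held 590, 328, 354 and 240 CPM when untreated and 560, 120, 359 and 239 CPM after IL4, so that line 2 was the lowest of its group after IL4 for both receptors.

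GNA13 (ENSG00000120063, chromosome 17, 65009289 to 65056740) was counted at 341 ± 82.5 CPM (SD, n = 4 lines) in AAVS baseline, 419 ± 100 in AAVS IL4, 306 ± 130 in CREBBP baseline and 328 ± 123 in CREBBP IL4. Line 4 had the highest GNA13 level in each of the 4 groups, from 418 to 564 CPM. ARHGEF1 (ENSG00000076928, chromosome 19, 41883173 to 41930150) lay close together in AAVS baseline, at 156, 146, 152 and 143 CPM, and was at 182, 156, 180 and 162 CPM in AAVS IL4, higher in each line. Its CREBBP baseline levels were 164, 139, 125 and 133 CPM, and its CREBBP IL4 levels were 149, 52.6, 126 and 124 CPM. The single low value was line 2, the library with the GC departure, and ARHGEF1, with a transcript of 63.2% GC, was at the percentile 95 of GC among the genes compared. RGS13 (ENSG00000127074, chromosome 1, 192636138 to 192660311), at the other end with 35.1% GC, was highest in line 2 of that same group. It was counted at 205, 51.0, 120 and 181 CPM in AAVS baseline, 168, 112, 133 and 215 CPM in AAVS IL4, 67.9, 118, 102 and 207 CPM in CREBBP baseline and 71.5, 236, 149 and 164 CPM in CREBBP IL4. GNA13, with 38.3% GC, was lowest in line 2 of CREBBP IL4, at 223.8 CPM beside 225.8 CPM in line 1. The part of GC content in these levels was not tested.

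**Figure D1:**
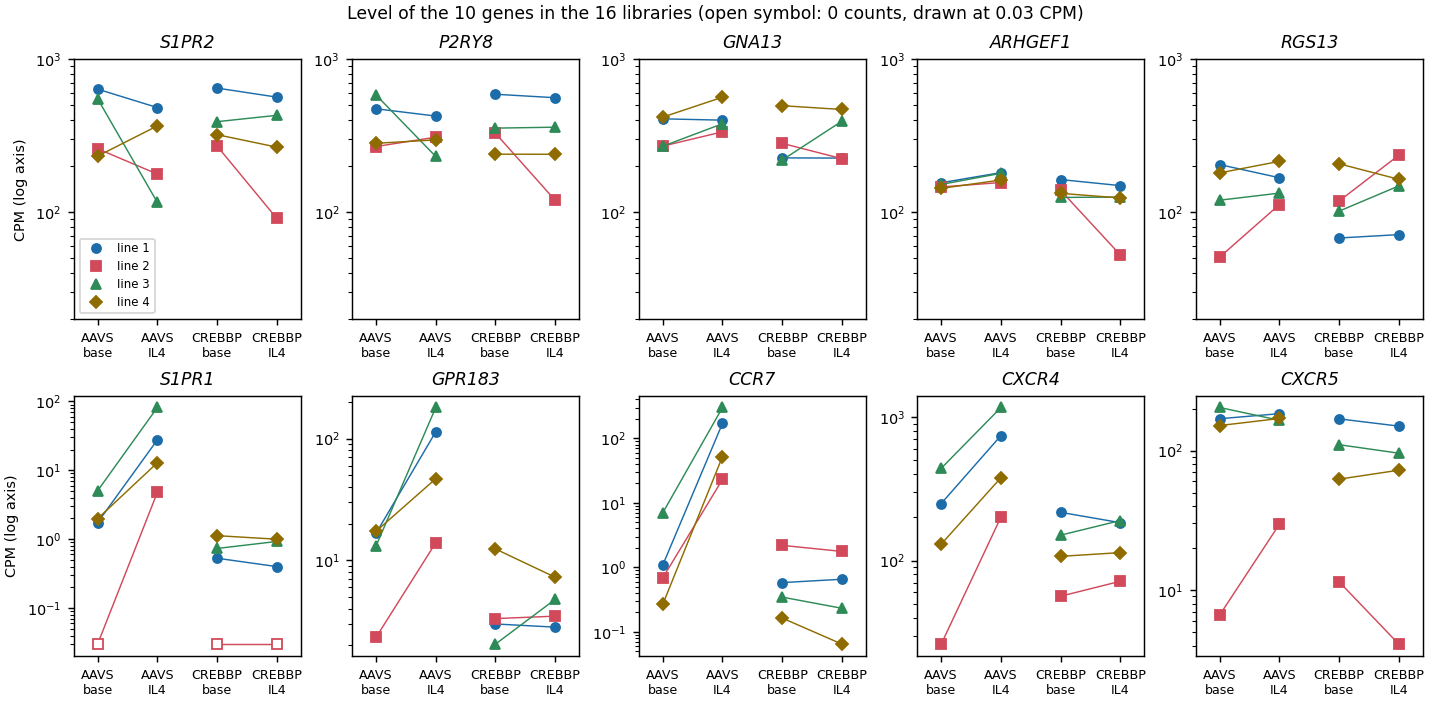
CPM of each gene (log axis, a different range for each gene in the lower row) in the AAVS and CREBBP pools, at baseline and with IL4. Each symbol is 1 library, lines join the libraries of 1 cell line and 1 pool, and an open symbol is a library without a count. S1PR1, GPR183, CCR7 and CXCR4 are higher with IL4 in all 4 AAVS pools, as is ARHGEF1 by a smaller step of 1.07-fold to 1.18-fold.

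The egress and homing receptors CCR7, S1PR1 and GPR183 were each higher in AAVS IL4 than at baseline in all 4 lines. CCR7 (ENSG00000126353, chromosome 17, 40553769 to 40565472) was counted at 1.09, 0.687, 6.999 and 0.267 CPM in lines 1 to 4 of AAVS baseline. With IL4 it reached 171, 23.1, 300.5 and 52.2 CPM, between 33.6-fold (line 2) and 195-fold (line 4) above the same line. These groups did not overlap, and the lowest AAVS IL4 library lay above the highest of the other 12. In the CREBBP pools CCR7 stayed low, at 0.580, 2.19, 0.345 and 0.164 CPM when untreated and at 0.654, 1.76, 0.232 and 0.0645 CPM after IL4. The last value is 4 counts.

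S1PR1 (ENSG00000170989, chromosome 1, 101236865 to 101243713) stood at 1.75, 0, 5.05 and 1.99 CPM in AAVS baseline and at 27.6, 4.77, 81.7 and 12.9 CPM in AAVS IL4. Line 2 had no count in AAVS baseline, CREBBP baseline or CREBBP IL4. A floor of 3 counts per library is 0.0736 CPM in its AAVS baseline library, so its AAVS IL4 level was at least 64.9-fold higher, beside 15.8-fold, 16.2-fold and 6.48-fold in lines 1, 3 and 4. The AAVS groups overlapped only through the level of line 3 at baseline, which exceeded that of line 2 with IL4. The CREBBP pools held 0.529, 0, 0.734 and 1.13 CPM when untreated and 0.401, 0, 0.928 and 1.0 CPM after IL4, all below the lowest AAVS IL4 library.

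GPR183 (ENSG00000169508, chromosome 13, 99294539 to 99307399) was at 16.7, 2.33, 13.1 and 17.3 CPM in AAVS baseline and at 114, 13.9, 179.9 and 46.8 CPM in AAVS IL4, 2.701-fold to 13.7-fold higher by line, with overlap between the groups. Its level in the CREBBP pools was 3.0, 3.32, 2.05 and 12.4 CPM when untreated and 2.83, 3.48, 4.78 and 7.26 CPM after IL4. Line 2 was the lowest in both AAVS groups, and line 4 the highest in both CREBBP groups. UBAC2 contains GPR183 on the other strand without sharing an exon base.

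CXCR4 (ENSG00000121966, chromosome 2, 136114349 to 136119177) was counted at 249.5, 26.1, 439 and 130 CPM in AAVS baseline. In AAVS IL4 it reached 742, 201, 1165 and 377.5 CPM, 2.65-fold to 7.68-fold above the same line, with overlap between the groups. The CREBBP pools held 217, 56.4, 150.2 and 107 CPM when untreated and 184, 71.7, 189.9 and 114 CPM after IL4. CXCR5 (ENSG00000160683, chromosome 11, 118883892 to 118897787) was lowest in line 2 in each group: line 2 held 6.62 CPM in AAVS baseline, 29.6 in AAVS IL4, 11.5 in CREBBP baseline and 4.10 in CREBBP IL4. The remaining lines stood at 151 to 203 CPM, 165 to 184 CPM, 62.4 to 169 CPM and 72.3 to 149.6 CPM in the same order. Of the merged exon length of CXCR5, 3913 bases also belong to BCL9L on the opposite strand, which was counted at 5.76 to 59.8 CPM. The methods name a stranded kit, but how strand was used in counting is not given in the sources used here, so reads of the 2 genes may be mixed.

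To ask which members differed with IL4, the AAVS IL4 libraries were compared with AAVS baseline within lines. The quasi-likelihood test in edgeR kept each line as its own block. Its p-values were adjusted by Benjamini-Hochberg over 20310 genes. CCR7, GPR183 and S1PR1 were called higher, 3 of the 10 members beside 2.39% of all genes tested, and no member was called lower. S1PR1 passed the filter on low counts here through the AAVS IL4 libraries, where it was high. Its call thus adds no support to the count of 3. The median log2 fold change of the 10 members was 0.335, beside 0.014 over all genes. CCR7 rose by 6.23 on the log2 scale (SE 0.56, adjusted p = 0.0066), GPR183 by 2.58 (SE 0.35, adjusted p = 0.023) and S1PR1 by 4.00 (SE 0.72, adjusted p = 0.048), with 4 of 4 lines higher for each. CXCR4, at 1.79 (SE 0.34, adjusted p = 0.055), was also higher in 4 of 4 lines and did not pass the threshold. None of the confinement genes was called: S1PR2 differed by -0.67 (SE 0.49, adjusted p = 0.510), P2RY8 by -0.35 (SE 0.34, adjusted p = 0.602), GNA13 by 0.24 (SE 0.19, adjusted p = 0.542) and ARHGEF1 by 0.12 (SE 0.16, adjusted p = 0.699). By CPM, ARHGEF1 was higher in 4 of 4 lines, but its lowest AAVS IL4 library (156.4 CPM) barely exceeded its highest AAVS baseline library (155.9 CPM). Its fitted value turned to -0.0023 without the filter on low counts. GNA13 was higher by CPM in 3 of 4 lines. RGS13 (0.25, SE 0.29) and CXCR5 (0.42, SE 0.45) were not called either. In bulk RNA, a change in the share of cells that express a gene and a change in RNA per cell cannot be told apart.

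The CCR7 call was kept in all 9 alternative fits, whereas GPR183 lost its call without line 1 (adjusted p = 0.126) and without the block (0.171). S1PR1 lost its call without line 1 (adjusted p = 0.222), line 3 (0.0960) or line 4 (0.0961), without the block (0.312) and with an offset for GC content (0.0524). CXCR4 gained a call in 4 of the 9 alternatives: without line 2 (adjusted p = 0.0291), without the filter (0.00352), with the GC offset (0.0449) and with DESeq2 (3.42e-05).

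The naive B cell, plasma cell and T cell markers moved with these receptors. Across the AAVS IL4 libraries the summed naive or resting B cell list stood at 1753, 830, 3401 and 426 CPM in lines 1 to 4 and the T cell list at 81.8, 69.4, 164 and 18.4 CPM. Line 3 was highest and line 1 next for both lists, as they were for CCR7, S1PR1, GPR183 and CXCR4. Among the lower lines the order was crossed, since line 2 exceeded line 4 for the marker lists and line 4 exceeded line 2 for the 4 receptors. IRF4, a transcription factor of plasma cells, and CD44, an adhesion receptor that germinal centre cells hold low, were at 49.3 to 362 CPM and 67.5 to 941 CPM in AAVS IL4 and at no more than 1.25 and 0.472 CPM elsewhere. Their part in the rise of the receptors was not tested.

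**Figure D2:**
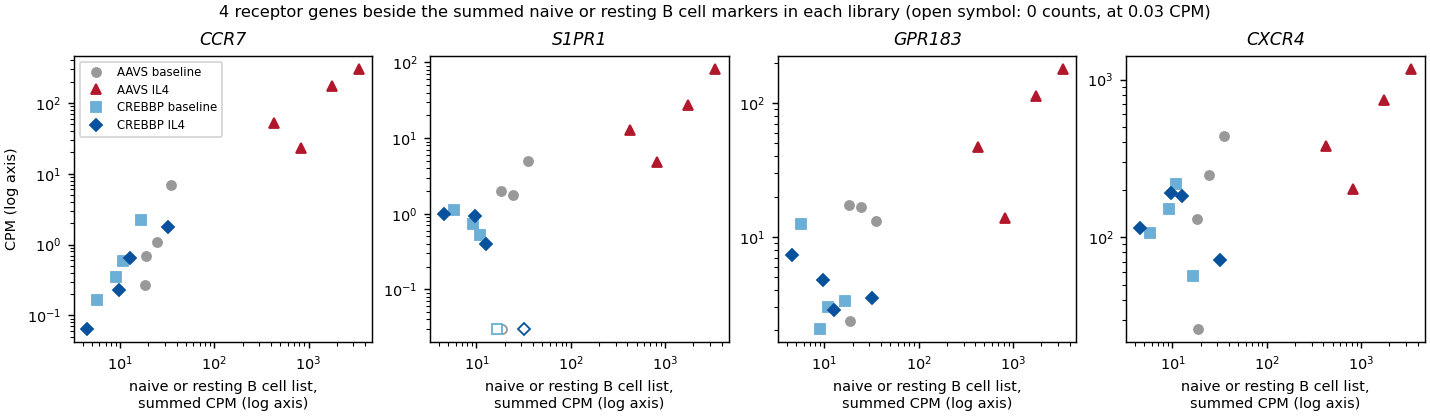
CPM of CCR7, S1PR1, GPR183 and CXCR4 (vertical, log axis) against the summed CPM of 6 naive or resting B cell markers (horizontal, log axis), 1 symbol per library. The 4 AAVS IL4 libraries, with marker sums of 425.6 to 3401 CPM, are separated from the other 12, with sums of 4.49 to 34.9 CPM.

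In the CREBBP pools, IL4 against baseline gave no call for any of the 10 members with edgeR, beside 0% of the 18282 genes tested. No member had an unadjusted p under 0.05, and DESeq2 also called 0 members, while over all genes 502 had an unadjusted p under 0.05 and DESeq2 called 1. CCR7 differed by -0.35 (SE 0.50), S1PR1 by -0.17 (SE 0.57), GPR183 by 0.14 (SE 0.31) and CXCR4 by 0.18 (SE 0.20), each with lines on both sides of zero. The lowest unadjusted p-values among members were those of S1PR2 at -0.42 (SE 0.21) and ARHGEF1 at -0.36 (SE 0.18), both with an adjusted p of 0.924 in edgeR's test. The values of these genes moved to -0.21 and -0.17 when line 2, which holds the library with the GC departure, was left out, and to -0.27 and -0.14 with an offset for GC content.

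Untreated CREBBP and AAVS pools were compared to ask whether targeting alone moved these genes. None of the 10 members was called by edgeR, beside 0% of the 18936 genes tested, and DESeq2 called 0 of them. Over all genes, 2422 had an unadjusted p under 0.05 and DESeq2 called 511. S1PR1 and GPR183 were the members with an unadjusted p under 0.05. S1PR1 was lower in the 3 lines in which it was counted, at -1.66 on the log2 scale (SE 0.55, adjusted p = 0.299), and GPR183 was lower in 3 of 4 lines, at -1.20 (SE 0.50, adjusted p = 0.363). In lines 1 and 3 the AAVS level of GPR183 was 5.56-fold and 6.40-fold that of the CREBBP pool, in line 4 it was 1.40-fold, and in line 2 the CREBBP pool was 1.43-fold higher. GPR183 was called lower in 2 of 9 alternative fits. These were the edgeR fits without line 2, at -1.75 (adjusted p = 0.0489), and without the filter on low counts (adjusted p = 0.0131). S1PR2, P2RY8, GNA13, ARHGEF1 and RGS13 differed by -0.11 to 0.11 with standard errors of 0.18 to 0.37. The CCR7 difference of -0.91 (SE 0.85) turned to 0.09 without line 3, whose AAVS baseline library held the highest CCR7 level of the untreated libraries.

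With IL4 present, CCR7, S1PR1, GPR183 and CXCR4 were called lower in the CREBBP pools than in the AAVS pools, 4 of 10 members beside 3.42% of 19581 genes, and no member was called higher. CCR7 and S1PR1 passed the filter on low counts here through the AAVS IL4 libraries, where they were high. Their calls thus add no support to the count of 4. The median over the members was -0.704 and over all genes -0.053. CCR7 differed by -7.76 (SE 1.35, adjusted p = 0.0295 in edgeR's test), S1PR1 by -5.58 (SE 0.70, adjusted p = 0.0121), GPR183 by -3.57 (SE 0.73, adjusted p = 0.0433) and CXCR4 by -1.69 (SE 0.31, adjusted p = 0.0355). All 4 lines were lower for each of these genes. By line, the AAVS level was 13.1-fold to 1295-fold that of the CREBBP pool for CCR7, 4.01-fold to 40.2-fold for GPR183 and 2.80-fold to 6.13-fold for CXCR4. For S1PR1 it was 12.9-fold to 88.0-fold in lines 1, 3 and 4 and at least 64.0-fold in line 2. CXCR5 was also lower in 4 of 4 lines, at -1.0 (SE 0.36, adjusted p = 0.140), and was not called, though it was with DESeq2 (adjusted p = 0.0433) and with GC offsets (0.0487). ARHGEF1 was lower in 4 of 4 lines as well, at -0.41 (SE 0.23, adjusted p = 0.305), while S1PR2, P2RY8, GNA13 and RGS13 had lines on both sides. This comparison shares its AAVS IL4 libraries with the comparison of IL4 and baseline in the AAVS pools.

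These 4 calls depended on single lines. Without line 1 or without line 3 no member was called, with adjusted p-values of 0.0743 to 0.161 and 0.0885 to 0.160, and without line 4 the call of S1PR1 was the 1 that was left (adjusted p = 0.0117, edgeR). CXCR4 also lost its call without the block (adjusted p = 0.0906).

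The difference between the IL4 responses was then tested as an interaction in 1 fit of all 16 libraries. It had a block for each pool (line by target) and a term for IL4 in each target. CCR7 was called with a lower response in the CREBBP pools, at -6.35 (SE 0.64, adjusted p = 0.00134), 1 of 10 members beside 0.62% of 21932 genes. Its response was lower in 4 of 4 lines. The responses of GPR183 (-2.33, SE 0.48, adjusted p = 0.0581), S1PR1 (-4.05, SE 0.87, adjusted p = 0.0779) and CXCR4 (-1.50, SE 0.43, adjusted p = 0.171) were lower in 4 of 4 lines too and did not pass the threshold with edgeR. DESeq2 called all 4 of them. The CCR7 call was kept without each line in turn, with adjusted p-values of 0.00292 to 0.0316, and was lost without the block (adjusted p = 0.385). For S1PR2, P2RY8, GNA13 and RGS13 the differences were 0.02 to 0.35 with standard errors of 0.28 to 0.57, and for ARHGEF1 -0.37 (SE 0.25, adjusted p = 0.547), lower in 4 of 4 lines.

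**Figure D3:**
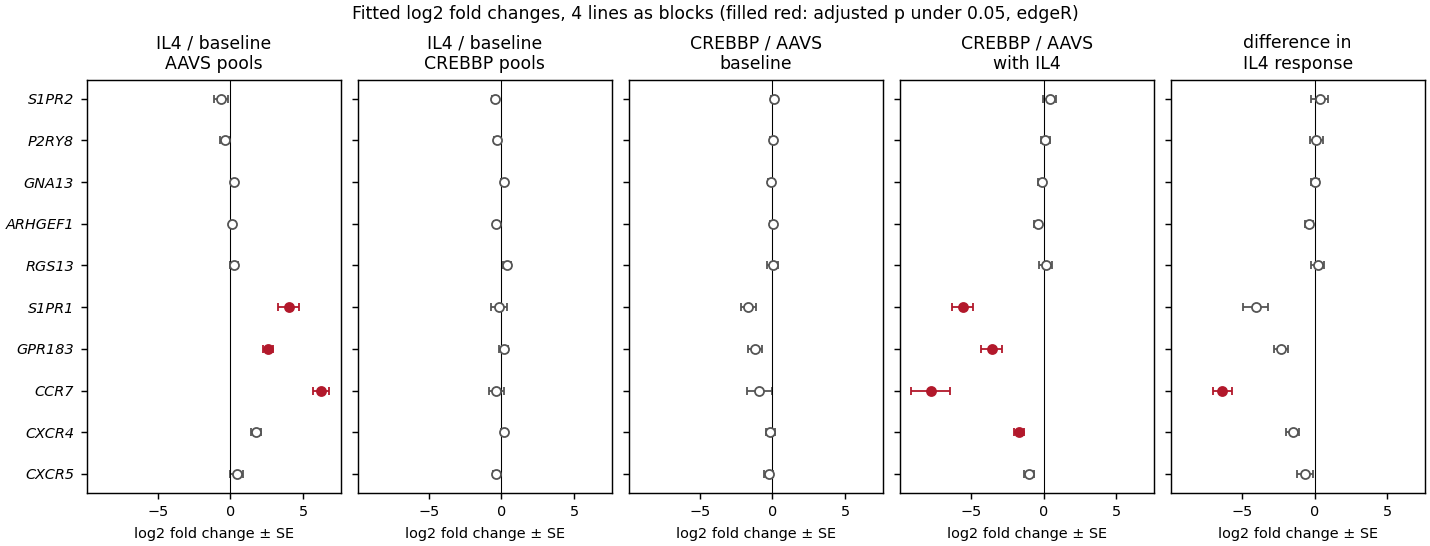
Fitted log2 fold changes of the 10 genes (horizontal axis) with their standard errors in 5 comparisons, each from 4 lines. Filled red points have an adjusted p under 0.05: CCR7, GPR183 and S1PR1 for IL4 in the AAVS pools, these and CXCR4 for CREBBP against AAVS with IL4, and CCR7 for the difference in response.

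Levels of different genes were set side by side per length, as CPM per kb of merged GENCODE exon. In AAVS baseline, S1PR2 led with 115 ± 56.0 CPM per kb (SD, n = 4 lines), followed by P2RY8 with 88.8 ± 33.8, CXCR4 with 72.8 ± 61.1, GNA13 with 53.1 ± 12.8, CXCR5 with 30.9 ± 20.2, RGS13 with 23.5 ± 11.6 and ARHGEF1 with 17.3 ± 0.65. GPR183 (7.33 ± 4.12), CCR7 (0.901 ± 1.27) and S1PR1 (0.420 ± 0.402) were the lowest. Neighbours in this order overlapped within their SD, except ARHGEF1 and GPR183, and GPR183 and CCR7. The 2 S1P receptors were thus far apart: per kb, the S1PR2 level was 523, 156 and 168 times that of S1PR1 in lines 1, 3 and 4 of AAVS baseline, and at least 5063 times in line 2. In AAVS IL4 the ratio was 25.1, 53.4, 2.04 and 40.8. It was 382 or more in every library of the CREBBP pools. The CXCR4 level per kb exceeded that of CXCR5 in all 16 libraries, from 1.27-fold in line 4 of AAVS baseline to 25.9-fold in line 2 of CREBBP IL4, and within each AAVS pool the ratio was higher with IL4 than at baseline. The length of CXCR5 is counted with the exon bases it shares with BCL9L.

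The lines were compared over the 12 libraries outside the AAVS IL4 group, with 3 libraries per line. The libraries of a line are pools and treatments of 1 cell line, so the p-values measure lines against the spread between such libraries. By edgeR's F test with the condition in the model, 6 of the 10 members differed between the lines, beside 42.4% of 21181 genes: CXCR5 (adjusted p = 8.04e-06), S1PR1 (0.000291), S1PR2 (0.000428), P2RY8 (0.00142), CXCR4 (0.00669) and CCR7 (0.0363). GNA13 (adjusted p = 0.274), ARHGEF1 (0.0691), GPR183 (0.186) and RGS13 (0.914) did not pass the threshold. CXCR5 averaged 162 ± 11.1 CPM in line 1, 136 ± 58.5 in line 3, 95.2 ± 48.6 in line 4 and 7.40 ± 3.75 in line 2 (SD, n = 3 libraries). Line 2 lay below the others, whose neighbours overlapped within their SD. CXCR4 followed a like order, at 260 ± 157 CPM in line 3, 217 ± 33.0 in line 1, 117 ± 11.9 in line 4 and 51.4 ± 23.2 in line 2. For CXCR4, line 3 was not separated by SD from line 1 or line 4. S1PR2 averaged 616 ± 44.8 CPM in line 1, 457 ± 83.5 in line 3, 273 ± 44.7 in line 4 and 207 ± 101 in line 2, and P2RY8 541 ± 60.01, 432 ± 131, 254 ± 24.7 and 239 ± 107 CPM in the same order of lines. For both confinement receptors, lines 4 and 2 were not separated by their SD. For P2RY8, line 3 was also not separated from line 1 or line 2. S1PR1 was not detected in the 3 libraries of line 2, where the floors of 3 counts were 0.0736 to 0.103 CPM, and averaged 0.892 ± 0.743, 2.24 ± 2.44 and 1.37 ± 0.536 CPM in lines 1, 3 and 4. CCR7 ran the other way for line 2, at 1.55 ± 0.776 CPM beside 0.165 ± 0.101 in line 4. Line 3 averaged 2.52 ± 3.87 CPM of CCR7, a mean set by its AAVS baseline library. The CCR7 call between lines was lost with all 16 libraries (adjusted p = 0.0734), without the CREBBP baseline group (0.134), without the CREBBP IL4 group (0.0663) and with an offset for GC content (0.0551), and that of CXCR4 without the CREBBP baseline group (0.0788). GPR183 gained a call without the filter (0.00105) and without the AAVS baseline group (0.0396), and RGS13 without the AAVS baseline group (0.0477).

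**Figure D4:**
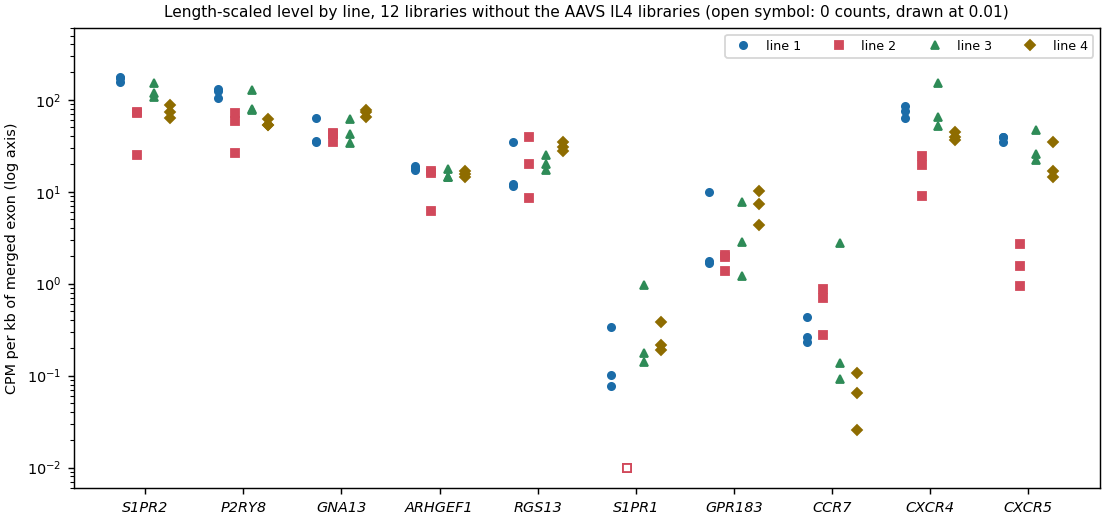
CPM per kb of merged exon (log axis) for each gene in the 3 libraries of each line outside the AAVS IL4 group, with an open symbol for libraries without a count. Line 2 lies lowest for CXCR5 and CXCR4 and has no S1PR1 count, while S1PR2 and P2RY8 stay above GPR183, CCR7 and S1PR1 in every line.

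The genes around the members were read from lists of 56 partners. For IL4 in the AAVS pools, 4 of the 50 partners tested were called higher, beside 2.39% of all genes, and none lower, with a median of 0.105 beside 0.014 over all genes. They were KLF2, the transcription factor that drives S1PR1, at 5.82 (SE 0.60, adjusted p = 0.0095 in edgeR's test), GNAQ, a Gq subunit, S1PR4, a further S1P receptor, at 3.56 (SE 0.58, adjusted p = 0.0340), and SGPP2, an S1P phosphatase, at 2.77 (SE 0.49, adjusted p = 0.0460). KLF2 was counted at 0.285, 0.711, 0.595 and 0.458 CPM in AAVS baseline and at 40.7, 14.8, 91.3 and 12.7 CPM in AAVS IL4, against no more than 1.75 CPM in the CREBBP pools. S1PR4 was at 0.172 to 0.392 CPM and 0.737 to 8.65 CPM in the same AAVS groups. GNAQ had no count in 3 of the 4 AAVS baseline libraries and stood at 0.775 to 2.90 CPM in AAVS IL4, so no fold is given for it. GNAQ and S1PR4 passed the filter on low counts through the AAVS IL4 libraries, where they were high. Their calls thus add no support to the count of 4. The lists of receptor desensitisation genes (6 tested) and of other RGS genes (8 tested) had no call. Of the GPR183 ligand enzymes, CH25H and CYP7B1, which make the oxysterol, were too low to be tested, at no more than 0.156 and 0.468 CPM in any library.

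No partner was called by edgeR for IL4 in the CREBBP pools (44 tested, 4 with an unadjusted p under 0.05) or between the pools at baseline (46 tested, 3 with an unadjusted p under 0.05). With IL4, 5 of 48 partners were called lower in the CREBBP pools, beside 3.42% of all genes, and none higher: KLF2 at -6.47 (SE 1.05), S1PR4 at -3.70 (SE 0.64), CCR6, a chemokine receptor of memory and naive B cells, at -3.20 (SE 0.51), RGS1, a regulator related to RGS13, at -2.88 (SE 0.48), and SGPP2 at -2.68 (SE 0.39), with adjusted p-values of 0.0196 to 0.0294 in edgeR's test. Genes low in CREBBP IL4, S1PR4 and CCR6 among them, passed the filter here through the AAVS IL4 libraries, where they were high. Their calls thus add no support to the count of 5. RGS1 was counted at 335, 268, 640.5 and 153 CPM in AAVS IL4 and at 37.9, 67.6, 28.3 and 19.5 CPM in CREBBP IL4, while RGS13 overlapped between these groups. The interaction in edgeR called KLF2 (-5.54, SE 0.78, adjusted p = 0.0125) and GNAQ (adjusted p = 0.0373) with a lower response in the CREBBP pools, 2 of 50 partners beside 0.62% of all genes. GNAQ passed the filter through the AAVS IL4 libraries here too, so its call adds no support to that count. RGS18, a platelet and myeloid regulator, was called with a higher response (2.34, SE 0.45, adjusted p = 0.0442 in edgeR's test). RGS18 stood at 16.5, 27.8, 9.30 and 25.1 CPM in AAVS baseline and at 6.83, 4.83, 1.99 and 14.9 CPM in AAVS IL4, lower in each line.

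Between the lines, 26 of 46 partners were called (edgeR's F test), beside 42.4% of all genes. Among the widest of them were CCR6, the integrin genes ITGB2 and ITGB1, and SPNS2, an S1P transporter. ITGB2, the β subunit of LFA-1, was at 184 to 417 CPM in line 2 and at 2.40 to 19.7 CPM in line 4, whereas ITGB1 was at 20.9 to 25.5 CPM in line 2 and 374 to 421 CPM in line 4. SPNS2 was at 16.1 to 66.3 CPM in line 2 and at no more than 1.95 CPM in the other lines. CCR6, at no more than 0.0490 CPM in line 2 and 0.371 to 7.22 CPM in the others, also set line 2 apart.

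To describe which genes ran most like each member, Pearson's r was taken on log2(CPM + 0.5) over the 16 libraries against 14987 genes with a mean of at least 1 CPM, and again over the 12 libraries outside AAVS IL4 against 14239 genes. The points share libraries, lines, depth and GC composition, so r is a description. CCR7 ran most like HSPA1A (r = 0.987), a heat shock gene whose reads may be shared with the near-identical HSPA1B, then IRF4 (0.977) and SGSH (0.973), and over the 12 libraries most like ST13 (0.955), with HSPA1A next (0.922). For S1PR1 the nearest genes were CFLAR (0.977), ELL2 (0.974) and OTUD1 (0.973) over 16 libraries, and none of these was among the 3 nearest over 12, where CCDC74B led (0.954). GPR183 was nearest to BACH1 in both sets (0.969 and 0.958). CXCR4 was nearest to CYTIP (0.960) over 16 libraries, which was next to the nearest over 12 (0.950), and CXCR5 was near SH3TC1 in both (0.988 and 0.989). P2RY8 was nearest to SREBF1 and ARMC5 in both sets (0.976 and 0.975, then 0.986 and 0.985). S1PR2 was nearest to VAV1 over 16 libraries (0.972) and to AP3D1 over 12 (0.980), GNA13 to PICALM (0.963) and TRAPPC8 (0.978), and ARHGEF1 to ARSA (0.968) and BICRA (0.981). RGS13 had the lowest values, with UBE2B nearest in both sets (0.892 and 0.907).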

How the data were processed

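The authors sequenced 16 cell line libraries made from RNA after removal of ribosomal RNA. Per the methods and the submitters' processing notes, reads were trimmed with cutadapt 2.3, checked with FastQC 0.11.8 and MultiQC 1.7, mapped to GRCh38 with STAR 2.7.8a and assigned to genes with RSEM 1.3.3. The authors deposited the estimated counts (expected counts) per gene as whole numbers without normalization, so none was rounded here. The authors name DESeq2 without a formula, and state that counts of technical replicates were averaged and that the cell lines followed the same methods.

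CPM was the count over the library total. Genes were kept by filterByExpr, given TMM scaling factors, and differences were fitted in edgeR 4.0.16 (glmQLFit and glmQLFTest, R 4.3.3) with the line as a block. The interaction used the pool (line by target) as its block. Genes were called at an adjusted p under 0.05 over all genes tested. Fits were tested on simulated data. The numbers pair libraries because they stand for the same cell line. Deviations from group means correlated within lines with medians of 0.583, 0.720, 0.301 and 0.681 for lines 1 to 4 (lowest -0.145, line 3). Positions and lengths are from GENCODE 44, which held 62639 of the 62714 gene IDs. The 10 members, the partner and marker lists and the tests were chosen with earlier results of these data known. Named partners are up to 5 per comparison with the largest called change, and some genes of the lists are not reported here. Alternatives were DESeq2 1.42.0 and its size factors, no filter, no block, each line or group left out, all 16 libraries for the lines and, chosen after seeing the data, a GC offset. Counting error alone sets the floors of 3 counts.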

Additional observations from a re-analysis of the deposited data

Results flagged for a closer look

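Within groups of 4 libraries, 3 of the 40 group and gene combinations had a library far from the others by Dixon's criterion, and chance flags about 1 in 20. CCR7 in AAVS baseline stood at 6.999 CPM in line 3. GPR183 in CREBBP baseline stood at 12.4 CPM in line 4. CXCR5 in AAVS IL4 stood at 29.6 CPM in line 2, below the other lines.

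The IL4 response of CCR7 differed between the pools by -6.35 on the log2 scale by the interaction test given above (edgeR, adjusted p = 0.00134, lower in 4 of 4 lines).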

How the results depend on the processing

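Over the 530 alternative values of single members, 438 kept their direction and their side of the threshold, 21 passed it newly, 25 lost it and 46 turned direction. None of the 120 alternatives of called members turned direction, and 25 lost the call. The AAVS IL4 libraries cannot be left out of the comparisons that use them, 4 lines per group limit every test, and S1PR1 and CCR7 rest on few counts outside that group. The cause of the changes below was not tested.

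Without a filter on low counts the genes called were 1851 instead of 488 for IL4 in the AAVS pools, 40 instead of 0 for IL4 in the CREBBP pools, 586 instead of 0 between the pools at baseline, 3466 instead of 859 with IL4 and 1191 instead of 140 for the difference in response. DESeq2 called 2062, 1, 511, 4154 and 1099 genes in the same order. Members called were 1 at baseline without the filter, and for the difference in response 4 without the filter, 4 with DESeq2 and 2 with GC offsets, instead of 1. Without the block that pairs the libraries (line, or pool for the difference), 540 genes were called with IL4 and 2 for the difference, and members called were 1 for IL4 in the AAVS pools and 0 for the difference. With each line left out in turn, genes called ranged from 64 to 1035 for IL4 in the AAVS pools, 0 to 515 at baseline, 25 to 2547 with IL4 and 16 to 264 for the difference, and from 3267 to 7795 between lines with each group left out. Members called ranged from 1 to 4, 0 to 1, 0 to 4 and 1 to 3 in the first 4 of these.

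Turned directions, all of members without a call, were as follows on the log2 scale. For IL4 in the AAVS pools, ARHGEF1 was -0.0023 without the filter and CXCR5 -0.0719 without the block, and leaving out lines gave -0.12 to 0.70 for CXCR5 and -0.0796 to 0.42 for RGS13. For IL4 in the CREBBP pools, GNA13 was -0.0666 and GPR183 -0.0810 with GC offsets, GPR183 was -0.0904 and CCR7 0.0237 without the block, and leaving out lines gave -0.12 to 0.48 for GPR183, -0.0358 to 0.33 for CXCR4 and -0.0035 to 0.62 for RGS13. At baseline, GC offsets gave S1PR2 -0.0140, ARHGEF1 -0.18 and P2RY8 -0.12, no filter gave ARHGEF1 -0.0432, P2RY8 -0.0316 and RGS13 -0.0320, and no block gave P2RY8 -0.0086 and RGS13 -0.14. Leaving out lines at baseline gave -0.0215 to 0.24 for S1PR2, -0.24 to 0.13 for GNA13, -0.0281 to 0.0215 for ARHGEF1, -0.0965 to 0.18 for P2RY8, -0.55 to 0.25 for CXCR4, -0.59 to 0.07 for CXCR5, -1.88 to 0.0891 for CCR7 and -0.40 to 0.51 for RGS13. With IL4, GC offsets gave P2RY8 -0.0815 and RGS13 -0.0914, and leaving out lines gave -0.10 to 0.74 for S1PR2, -0.26 to 0.06 for GNA13, -0.13 to 0.45 for P2RY8 and -0.28 to 0.59 for RGS13. For the difference in response, GNA13 was -0.0524 with DESeq2's size factors, -0.0524 with DESeq2 and -0.32 with GC offsets, RGS13 was -0.16 with GC offsets, and leaving out lines gave -0.31 to 0.68 for S1PR2, -0.11 to 0.0855 for GNA13 and -0.28 to 0.46 for P2RY8.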
